A study of Mus musculus with 17 samples.

Results

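The Bcl2 family of apoptosis regulators was examined on 17 expression arrays of sorted mouse bone marrow cells. The members were Bcl2, Mcl1, Bcl2l1, Bcl2l11, Bax, Bak1, Bid, Bbc3 and Pmaip1, and a probe set was taken when its single gene symbol in the platform annotation was one of these 9 genes. The rule itself used no measured value, but the members were chosen with earlier results of these data known. It gave 27 of the 45101 probe sets on the array and covered 8 of the 9 genes, with 5 probe sets for Bcl2, 6 for Mcl1, 4 for Bcl2l1, 5 for Bcl2l11, 2 for Bak1, 3 for Bid and 1 each for Bbc3 and Pmaip1. Bax is not analysed here, since the annotation used gave it no probe set of its own. After a filter on dim signals, 26 of the 27 were tested. The probe set left out was 1426050_at of Bcl2l1.

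The arrays fell into 5 groups. Batch 1 of the sample titles came from Pig-a knock-out mice, with 3 arrays of their GPI-negative marrow cells and 3 of their GPI-positive marrow cells. Batch 2 held 4 arrays of GPI-negative cells from C57BL/6 recipients that had been given enriched Pig-a knock-out marrow. It also held 3 arrays of GPI-positive cells from C57BL/6 recipients given wild-type marrow, and 4 arrays of GPI-positive cells from untransplanted wild-type C57BL/6 mice. Pig-a (Piga) encodes an enzyme subunit needed to build the glycosylphosphatidylinositol (GPI) anchor, and cells without it lack GPI-anchored surface proteins. All cells came from femurs and tibias and were sorted with antibodies against the GPI-anchored antigens CD24 and CD48 and against Gr-1. Knock-out donor cells were treated with 10 nM aerolysin, a toxin that kills GPI-bearing cells, for 30 minutes before they were given to recipients irradiated with 9 Gy. The protocols state these 2 treatments only for GPI-deficient grafts. Between the recipient groups, GPI status, donor genotype, aerolysin treatment and irradiation as stated therefore cannot be told apart. Where recipients given knock-out marrow are set against untransplanted wild-type cells, transplantation itself cannot be told apart from these either. No source used here gives the cells in which the deletion was made, the age of the mice or the cells that survived in the irradiated hosts. By their titles the arrays of a group are biological replicates, with no animal named, so a p-value measures no more than the spread among these arrays.

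Bcl2 family proteins decide whether the outer mitochondrial membrane is opened, the step that commits a cell to intrinsic apoptosis. Bcl2, Mcl1 and Bcl2l1 (Bcl-xL) restrain this step, Bak1 and Bax form the pores, and the BH3-only proteins Bcl2l11 (Bim), Bid, Bbc3 (Puma) and Pmaip1 (Noxa) start it by binding the other classes. In blood-forming tissue the protectors differ by lineage: Bcl2 protects lymphocytes, Mcl1 is needed by stem cells and neutrophils, and Bcl2l1 is needed late in red cell formation.

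The promoter windows of Bcl2, Mcl1 and Bid are shown as examples. Several probe sets of the first pair were higher between the recipient groups, and Bid was lower in knock-out GPI-negative cells. The calls of Mcl1 and Bid were lost under some of the alternatives given below. Each window runs from 250 bases before to 50 bases after the RefSeq transcript start (assembly GRCm38.p6) and is written 5′ to 3′ on the strand of the gene, with matches to the searched motifs in capitals. Bcl2 lies at chr1:106714241-106714540 on the minus strand, Mcl1 at chr3:95658471-95658770 on the plus strand and Bid at chr6:120916775-120917074 on the minus strand.
Bcl2: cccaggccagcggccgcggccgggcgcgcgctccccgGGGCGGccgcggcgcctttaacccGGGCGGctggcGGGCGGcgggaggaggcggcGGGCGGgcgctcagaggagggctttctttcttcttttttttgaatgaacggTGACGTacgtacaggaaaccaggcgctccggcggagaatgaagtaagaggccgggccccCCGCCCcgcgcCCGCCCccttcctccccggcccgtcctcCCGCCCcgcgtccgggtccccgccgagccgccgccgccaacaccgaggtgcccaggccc
Mcl1: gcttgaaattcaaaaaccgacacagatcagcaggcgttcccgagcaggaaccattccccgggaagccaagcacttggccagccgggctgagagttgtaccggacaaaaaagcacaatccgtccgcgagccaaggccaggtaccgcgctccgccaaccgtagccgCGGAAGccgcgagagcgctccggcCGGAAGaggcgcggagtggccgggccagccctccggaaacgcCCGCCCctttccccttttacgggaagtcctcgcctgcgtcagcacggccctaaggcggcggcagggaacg
Bid: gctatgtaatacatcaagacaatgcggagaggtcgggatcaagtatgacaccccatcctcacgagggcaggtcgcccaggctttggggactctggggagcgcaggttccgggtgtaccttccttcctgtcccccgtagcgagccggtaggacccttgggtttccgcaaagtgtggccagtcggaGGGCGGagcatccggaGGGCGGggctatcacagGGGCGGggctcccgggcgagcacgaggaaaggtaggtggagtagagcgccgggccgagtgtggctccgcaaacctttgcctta
The capitals mark GGGCGG (GC box), CGGAAG (ETS core) and TGACGT (CRE half-site) on either strand, so that a GC box on the other strand reads CCGCCC. Bcl2 held 7 GC boxes and 1 CRE half-site, Mcl1 held 1 GC box and 2 ETS cores, and Bid held 3 GC boxes. In these windows, no match was found to the CCAAT box, the TATA box (letters TATAAA), the forkhead core (letters TAAACA) or the AP-1 site (letters TGANTCA, which shares its first 3 letters with the CRE half-site). Of 32851 RefSeq starts with a window of this length, 35.66% held the GC box, 16.85% the ETS core, 7.513% the CRE half-site, 37.41% CCAAT, 13.62% TATAAA, 13.44% TAAACA and 7.808% TGANTCA. Guanine and cytosine made up 76% of the Bcl2 window, 65.67% of the Mcl1 window and 63.33% of the Bid window, against a median of 52.67% over all starts. A match describes the letters of the window and does not show a site in use.

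The arrays were checked against their labels. On the brighter Piga probe set, log2 signal was 1.65 to 1.92 in knock-out GPI-negative cells against 3.54 to 4.11 in knock-out GPI-positive cells. It was 0.28 to 0.92 in recipients given knock-out marrow, 4.02 to 4.25 in recipients given wild-type marrow and 4.07 to 4.30 in wild-type cells. The 13 tested neutrophil marker genes had group mean percentiles of 85.8 or more in each group, with Cxcr2 the lowest. The knock-out GPI-negative arrays stood apart in technical measures: hybridisation control transcripts had a mean log2 signal of 7.53 to 8.15 on them, against 5.48 to 6.01 on the knock-out GPI-positive arrays, and the 3′ minus 5′ difference of Gapdh was -0.29 to -0.04 against -1.03 to -0.997. The median standard deviation (SD) per probe set was 0.209 in knock-out GPI-negative cells and 0.109 in knock-out GPI-positive cells, so the 3 GPI-positive arrays differed little from each other. Knock-out GPI-negative replicate 2 had the lowest quality weight of the 17 arrays, 0.398. The part of these measures in the results below was not tested.

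Across the family, the 5 probe sets of Bcl2 were higher in knock-out GPI-negative than in knock-out GPI-positive cells, by up to 2.35 on the log2 scale, and higher between the recipient groups. Differences below are log2 signal of the first-named group minus the second, with the standard error (SE) of a limma fit over all 17 arrays, and a call is an adjusted p under 0.05 after Benjamini-Hochberg correction over 32426 probe sets. In knock-out marrow, 7 of the 26 tested probe sets were higher in GPI-negative than in GPI-positive cells and 3 were lower. Over all probe sets 12.0% were called higher and 13.4% lower in this comparison. The median difference was 0.03 for the members and -0.02 for all probe sets. Between recipients given knock-out marrow and recipients given wild-type marrow, 9 of 26 were higher and 0 lower by limma, with 2.33% of all probe sets higher and 1.75% lower. There the median difference was 0.36 for the members and -0.00 for all probe sets.

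Recipients given knock-out marrow against wild-type cells gave 6 higher and 1 lower member probe set, over a background of 4.20% higher and 3.96% lower, with a median of 0.15 for the members against -0.00 for all. The recipients given wild-type marrow, set against wild-type cells, gave 0 higher and 1 lower by limma, over 0.299% and 0.318%, with a median of -0.16 against 0.00. These last 3 comparisons share arrays, so their counts are not independent of each other. The probe sets of a gene are also not independent: with 1 mean value per gene, the calls were Bcl2 higher, Bcl2l11 higher and Bid lower in knock-out marrow, Bcl2 higher between the recipient groups, Bcl2 higher and Bcl2l1 lower in recipients given knock-out marrow against wild type, and none in the last comparison. When the 3 close-lying knock-out GPI-positive arrays were averaged into 1, 6 calls of the 10 were left in knock-out marrow, the 5 of Bcl2 and 1435448_at of Bcl2l11. The plot of all differences shows the 5 Bcl2 probe sets to the right of 0 in the first 3 comparisons and the Bid probe sets left of 0 in the first.

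**Figure D1:**
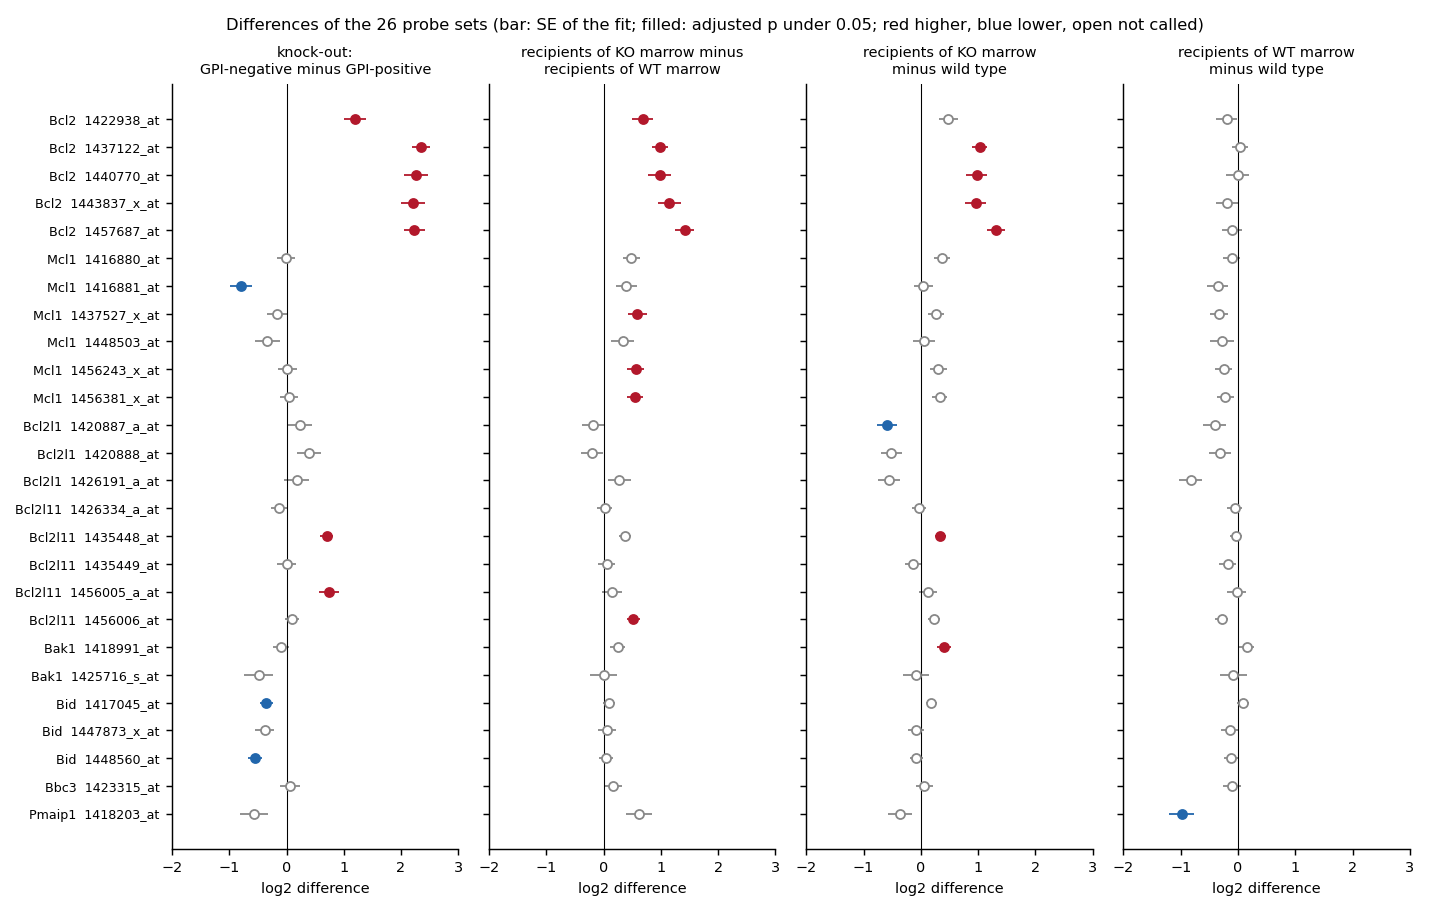
Log2 difference of each of the 26 tested Bcl2 family probe sets (rows) in 4 comparisons (panels, x axis in log2 units), with bars for the SE of the fit and filled points for an adjusted p under 0.05. Bcl2 holds 5 of the 7 points called higher in knock-out marrow and 5 of the 9 between the recipient groups, and Pmaip1 is the 1 point called in the panel that sets recipients given wild-type marrow against wild type.

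Bcl2, the founding member and a protector of lymphocytes, was higher in GPI-negative cells on each of its 5 probe sets in knock-out marrow. On the brightest, 1457687_at, log2 signal was 5.64, 5.70 and 5.58 in knock-out GPI-negative cells against 3.23, 3.39 and 3.61 in knock-out GPI-positive cells. The groups did not overlap, and the gap between them was wider than the range within either. The difference was 2.23 ± 0.18, or 4.69-fold (adjusted p = 1.03e-08, limma), and an exact permutation test (two-sided) gave p = 0.1, the smallest that 3 against 3 arrays allow. The other probe sets differed by 1.19, 2.35, 2.26 and 2.21, with adjusted p of at most 9.1e-05 and no overlap between the groups. The smallest of these, 1422938_at, had 3.09, 3.37 and 2.50 in knock-out GPI-negative cells and 1.69, 1.61 and 2.08 in knock-out GPI-positive cells.

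In recipients, 1457687_at of Bcl2 had 4.91, 4.41, 4.12 and 4.40 in recipients given knock-out marrow, against 2.81, 3.0 and 3.32 in recipients given wild-type marrow and 3.56, 3.17, 2.97 and 2.92 in wild-type cells. Each array of the first group lay above each array of the other two, and the highest was replicate 1. The difference from recipients given wild-type marrow was 1.41 ± 0.17 (adjusted p = 2.41e-05) and that from wild-type cells 1.31 ± 0.16 (adjusted p = 1.95e-05), both from limma. The exact permutation p was 0.0286 in both, the smallest these designs allow. The other 4 probe sets were also higher between the recipient groups, by 0.68, 0.98, 0.98 and 1.15.

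Among these, 1422938_at of Bcl2 differed least, at 1.85, 2.53, 2.26 and 2.41 in recipients given knock-out marrow against 1.64, 1.51 and 1.60 in recipients given wild-type marrow. Here too the 2 groups stood clear of each other, and replicate 1 of the recipients given knock-out marrow was the nearest to the others. Its adjusted p of 0.0348 (limma) rose to between 0.0669 and 0.133 when any 1 of 6 of the 7 arrays was left out. The call of 1440770_at between the recipient groups was lost without replicate 3 of the recipients given wild-type marrow (adjusted p = 0.0525, limma). Against wild-type cells 4 of the 5 were higher, by 1.03, 0.98, 0.96 and 1.31, and 1422938_at differed by 0.48 ± 0.17 (adjusted p = 0.0864, limma).

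Recipients given wild-type marrow did not show the Bcl2 difference from wild-type cells: the 5 probe sets differed by -0.20 to 0.04 with adjusted p of 0.724 to 0.998 (limma), and the groups overlapped on each. A p above the threshold does not show that the levels were equal; the SE of these differences was 0.14 to 0.20. The 5 Bcl2 probe sets varied together over the 17 arrays, with pairwise Pearson r of 0.74 to 0.96 on values centred on the batch mean, a description of arrays that share their groups.

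**Figure D2:**
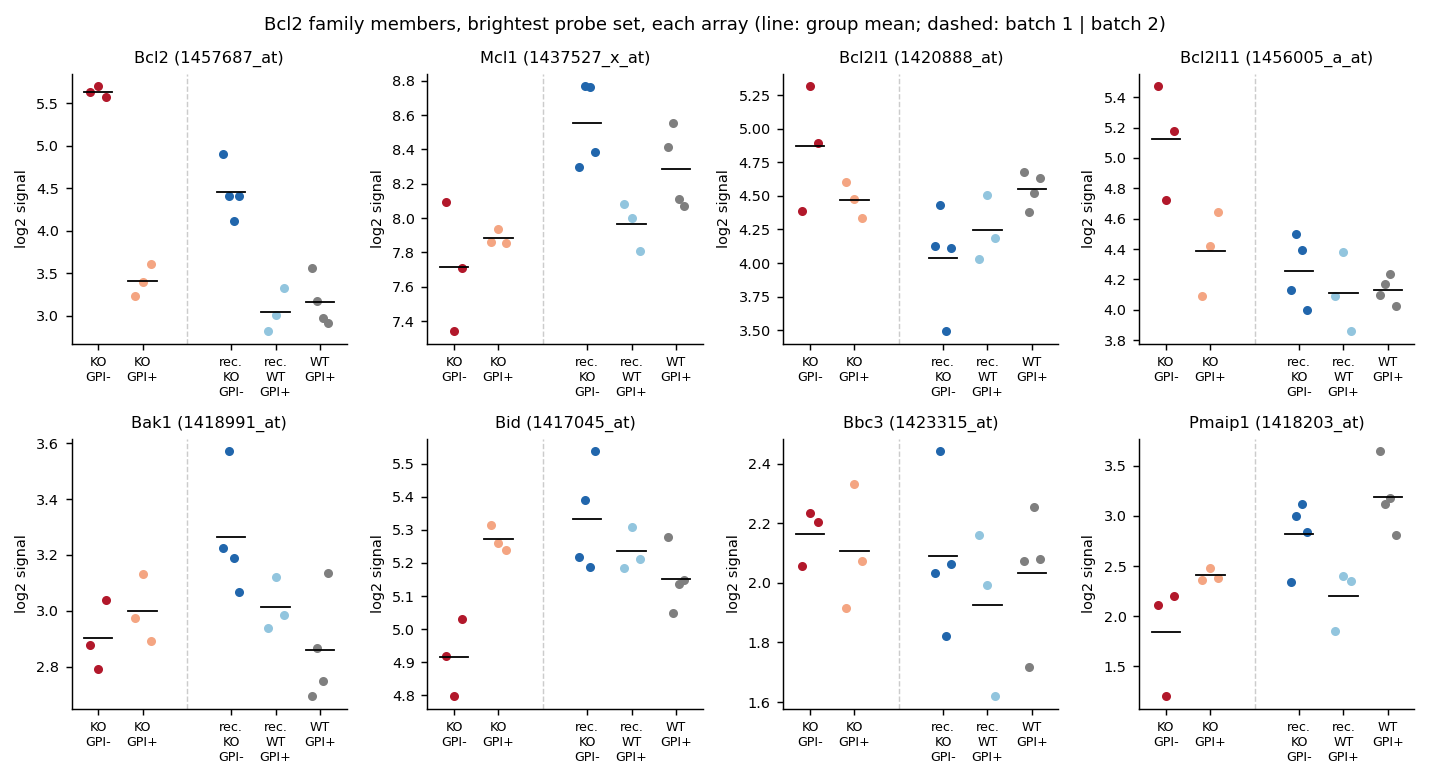
Log2 signal (y axis, scale set per panel) of the brightest probe set of each of the 8 measured genes on each of the 17 arrays, by group, with a line at the group mean and a dashed line between batch 1 and batch 2. For Bcl2 the 3 knock-out GPI-negative arrays lie at 5.58 to 5.70 above the 3 knock-out GPI-positive arrays, and the 4 arrays of recipients given knock-out marrow (4.12 to 4.91) lie above those of both other groups of batch 2. Levels are compared within a batch.

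Bcl2 moved with markers of other cell types. The mean log2 signal of 13 markers of T cells and natural killer (NK) cells was 5.01 to 5.32 in knock-out GPI-negative cells against 1.91 to 2.0 in knock-out GPI-positive cells, and 3.08 to 4.10 in recipients given knock-out marrow, 2.02 to 2.23 in recipients given wild-type marrow and 2.24 to 2.60 in wild-type cells. Of the 13 genes, 12 were higher in knock-out GPI-negative cells and Zap70 was not called. Between the recipient groups, and against wild type, 10 were higher, and Cd4, Il7r and Zap70 were not called. None of the 13 was called between recipients given wild-type marrow and wild-type cells. In recipients given wild-type marrow, the lowest of the list was Cd4, at the 23.2th percentile of its arrays, and in knock-out GPI-positive cells it was also Cd4, at the 25.4th. Within the recipients given knock-out marrow, replicate 1 had the highest marker mean (4.10) and replicate 3 the lowest (3.08). The brightest Bcl2 probe set had the same highest and lowest arrays (4.91 and 4.12), as did 1440770_at and 1443837_x_at. The remaining Bcl2 probe sets did not share this order. Among these recipients 1422938_at was lowest in replicate 1 (1.85), and 1437122_at had 3.39 in replicate 3 against 3.41 in replicate 1.

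Markers of dendritic cells moved in the same comparisons, with list means of 5.15 to 5.27 in knock-out GPI-negative cells against 3.65 to 3.70 in knock-out GPI-positive cells, and of 4.75 to 5.14 in recipients given knock-out marrow against 3.64 to 3.85 in recipients given wild-type marrow and 3.94 to 4.17 in wild-type cells. Of the 8 genes, 7 were higher in each of these 3 comparisons. B cell markers were higher for 5 of 9 genes in knock-out marrow and for 0 of 9 between the recipient groups by limma. In bulk sorted cells, a larger share of cells of a type and more RNA per cell cannot be told apart. The part of these markers in the Bcl2 result was not tested. The plot of Bcl2 against the T and NK marker mean shows the GPI-negative arrays of each batch to the upper right of the GPI-positive arrays of that batch.

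**Figure D3:**
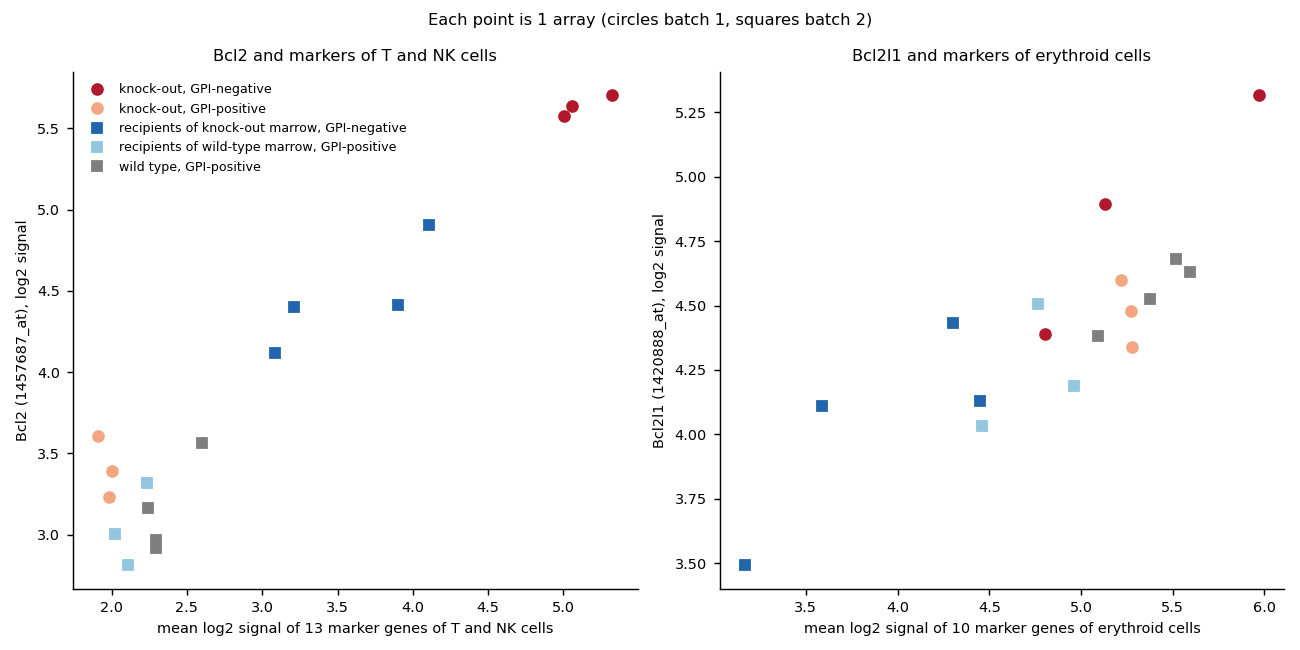
Each point is 1 array. The left panel sets log2 signal of Bcl2 (1457687_at, y axis) against the mean log2 signal of 13 marker genes of T and NK cells (x axis), and the right panel sets Bcl2l1 (1420888_at) against the mean of 10 marker genes of erythroid cells. On the left, the GPI-negative arrays of batch 1 lie at 5.01 to 5.32 on the marker axis against 1.91 to 2.0 for its GPI-positive arrays, and those of batch 2 at 3.08 to 4.10 against 2.02 to 2.60. On the right, knock-out GPI-negative replicate 2 is highest of batch 1 on both axes (5.97 and 5.32).

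Mcl1, a protector with a short-lived protein that neutrophils and stem cells need, had bright signals, with group means of its 6 probe sets between the 95.4th and the 99.3th percentile. In knock-out marrow only 1416881_at was called, at 6.38, 5.63 and 5.30 in GPI-negative cells against 6.62, 6.60 and 6.47 in GPI-positive cells. The GPI-negative arrays all lay lower, without overlap, and spread widely. The difference was -0.80 ± 0.19 (adjusted p = 0.0039, limma), and with the GPI-positive arrays averaged its adjusted p was 0.105. The other 5 differed by -0.33 to 0.04 with adjusted p of 0.286 to 0.963 (limma), and their groups overlapped, so the knock-out gave no shared direction for this gene.

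Between the recipient groups the 6 Mcl1 probe sets all differed in one direction, with differences of 0.34 to 0.59, and 3 of the 6 were called. The brightest, 1437527_x_at, had 8.30, 8.77, 8.76 and 8.38 in recipients given knock-out marrow against 8.08, 8.0 and 7.81 in recipients given wild-type marrow. There was no overlap, and replicates 2 and 3 of the recipients given knock-out marrow were the high ones. It differed by 0.59 ± 0.16 (adjusted p = 0.0352, limma), 1456243_x_at by 0.56 ± 0.15 and 1456381_x_at by 0.55 ± 0.14. The 3 called probe sets all carry the suffix that marks probes shared with other transcripts. Leaving out replicate 2 or 3 of either recipient group ended each of these calls, with adjusted p of 0.0882 to 0.177 (limma). Against wild-type cells no Mcl1 probe set was called, and the differences were 0.04 to 0.37. Recipients given wild-type marrow lay -0.36 to -0.11 from wild-type cells on the 6 probe sets, with none called.

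Bcl2l1, the protector of maturing red cells, was lower on 1 of its 3 kept probe sets in the recipients given knock-out marrow than in wild-type cells. On 1420887_a_at, log2 signal was 1.96, 2.18, 2.15 and 2.45 in recipients given knock-out marrow against 2.76, 2.60, 2.79 and 2.95 in wild-type cells. All recipient arrays lay below all wild-type arrays, and the difference was -0.59 ± 0.18 (adjusted p = 0.0492, limma, exact permutation p = 0.0286). Leaving out any 1 of 7 of the 8 arrays ended this call, with adjusted p of 0.059 to 0.137 (limma). The other 2 kept probe sets differed by -0.51 and -0.55 in the same comparison, with adjusted p of 0.0865 and 0.074 (limma), and the mean of the 3 probe sets differed by -0.55 ± 0.16 (adjusted p = 0.0276, limma).

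Recipients given wild-type marrow also lay below wild-type cells on Bcl2l1, by -0.83, -0.41 and -0.31, none of them called. On 1426191_a_at the values were 1.61, 1.57 and 1.40 in recipients given wild-type marrow against 2.71, 2.0, 2.31 and 2.39 in wild-type cells. These groups did not overlap (adjusted p = 0.0617, limma), and a fit on these 2 groups alone gave an adjusted p of 0.0161. Erythroid markers had list means of 3.17 to 4.45 in recipients given knock-out marrow, 4.46 to 4.96 in recipients given wild-type marrow and 5.09 to 5.59 in wild-type cells, and 9 of the 10 fell in the recipients given knock-out marrow relative to wild-type cells. Between the recipient groups 4 of the 10 erythroid genes were lower. There the kept Bcl2l1 probe sets differed by 0.27, -0.18 and -0.20, none of them called. The part of the erythroid markers in the Bcl2l1 result was not tested.

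In knock-out marrow the 3 kept Bcl2l1 probe sets differed by 0.18 to 0.39, with none called. On 1420888_at the values were 4.39, 5.32 and 4.90 in knock-out GPI-negative cells against 4.60, 4.48 and 4.34 in knock-out GPI-positive cells. Replicate 2 of the GPI-negative cells was the highest of the 6 arrays of batch 1 on each of the 3 probe sets (3.91, 5.32 and 3.36). It also had the highest erythroid marker mean of that batch, 5.97, against 4.81 and 5.13 in the other GPI-negative arrays. This is 1 array, and the one with the lowest quality weight, 0.398. The dim probe set 1426050_at, below the filter, lay lower in knock-out GPI-negative cells when no filter was used, by -0.75 ± 0.20 (adjusted p = 0.0101, limma), the opposite direction to the kept probe sets; its group means reached at most the 35.3th percentile.

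Bak1, the pore-forming effector measured here, was called on 1 of its 2 probe sets in 1 comparison. On 1418991_at, recipients given knock-out marrow had 3.23, 3.57, 3.19 and 3.07 against 2.69, 2.87, 2.75 and 3.14 in wild-type cells. The groups overlapped, because wild-type replicate 4 lay above the lowest recipient, and replicate 2 of the recipients was the highest. The difference of 0.40 ± 0.12 was called (adjusted p = 0.0422, limma, exact permutation p = 0.0571), and it was lost without any 1 of 6 of the 8 arrays (adjusted p of 0.0575 to 0.162) and in a limma fit on the 2 groups alone (adjusted p = 0.078). The dimmer 1425716_s_at differed by -0.08 ± 0.22 there. In the other 3 comparisons neither probe set was called, with differences of -0.49 to 0.25. The knock-out groups did not overlap on 1425716_s_at, with a difference of -0.49 ± 0.26 (adjusted p = 0.181, limma). A limma fit on those 2 groups alone gave an adjusted p of 0.0405.

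Bcl2l11 (Bim), the BH3-only protein that removes surplus lymphocytes and granulocytes, was higher in knock-out GPI-negative cells on its 2 brightest probe sets. On 1435448_at log2 signal was 4.36, 4.34 and 4.23 in knock-out GPI-negative cells against 3.49, 3.62 and 3.72 in knock-out GPI-positive cells. All 3 GPI-negative arrays lay above, and the difference was 0.70 ± 0.11 or 1.62-fold (adjusted p = 9.78e-05, limma). On 1456005_a_at the values were 5.47, 4.72 and 5.18 against 4.09, 4.42 and 4.64, with a difference of 0.74 ± 0.18 (adjusted p = 0.0041, limma). The second call was lost with the GPI-positive arrays averaged (adjusted p = 0.0799, limma). The other 3 probe sets differed by -0.13, 0.00 and 0.10 and were not called.

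The Bcl2l11 probe sets did not behave as one measure: their pairwise r over the 17 batch-centred arrays ranged from -0.33 to 0.74. Between the recipient groups, the dim probe set 1456006_at was higher, at 2.28, 2.28, 2.58 and 2.16 in recipients given knock-out marrow against 1.94, 1.84 and 1.63 in recipients given wild-type marrow. No array of one group overlapped with the other, and the difference was 0.52 ± 0.12 (adjusted p = 0.0097, limma); without replicate 3 of the recipients given wild-type marrow the adjusted p was 0.0745. The probe set 1435448_at differed by 0.38 ± 0.11 between the recipient groups (adjusted p = 0.0519, limma) and by 0.34 ± 0.10 from wild-type cells (adjusted p = 0.0359, limma), the second of these being lost without any 1 of 7 of the 8 arrays (adjusted p of 0.0567 to 0.131). No Bcl2l11 probe set was called between recipients given wild-type marrow and wild-type cells, with differences of -0.28 to -0.02.

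Bid, the BH3-only protein that carries death receptor signals to the mitochondrion once it is cut by caspase 8, fell in knock-out GPI-negative cells on 2 of its 3 probe sets. On the brightest, 1417045_at, log2 signal was 4.92, 4.80 and 5.03 in knock-out GPI-negative cells against 5.32, 5.26 and 5.24 in knock-out GPI-positive cells. On 1448560_at it was 3.29, 3.37 and 2.99 against 3.83, 3.72 and 3.75. Neither pair of groups overlapped. The differences were -0.36 ± 0.11 (adjusted p = 0.0238) and -0.55 ± 0.13 (adjusted p = 0.0028), and the third probe set differed by -0.38 ± 0.16 (adjusted p = 0.0882), all from limma.

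Both Bid calls were lost with the 3 GPI-positive arrays averaged: the adjusted p was 0.264 for 1417045_at and 0.0952 for 1448560_at (limma). Leaving out GPI-negative replicate 2 also ended the call of 1417045_at (adjusted p = 0.0844), as did leaving out any 1 GPI-positive array (adjusted p of 0.0539 to 0.0846, limma). The mean of the 13 neutrophil marker genes was 8.37 to 8.65 in knock-out GPI-negative cells against 9.39 to 9.43 in knock-out GPI-positive cells, with 11 of the 13 lower, and their part in the Bid result was not tested. In the 3 comparisons of batch 2 no Bid probe set was called, with differences of -0.14 to 0.18. Between the recipient groups 4 of the 13 neutrophil genes were lower and 0 higher, with a list median of 0.11. The Bid probe sets differed by 0.10, 0.06 and 0.04 there.

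Bbc3 (Puma), a p53 target among the BH3-only genes, was not called in any comparison. Its probe set 1423315_at had 2.06, 2.23 and 2.21 in knock-out GPI-negative cells against 1.91, 2.33 and 2.07 in knock-out GPI-positive cells. In batch 2 it had 2.03, 2.44, 1.82 and 2.06 in recipients given knock-out marrow, 2.16, 1.99 and 1.62 in recipients given wild-type marrow and 2.07, 1.72, 2.25 and 2.08 in wild-type cells. The groups overlapped in each comparison, the differences were -0.11 to 0.16, and their SE was 0.15 to 0.17.

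Pmaip1 (Noxa), the BH3-only partner that removes Mcl1, was the member that differed between recipients given wild-type marrow and wild-type cells. Its probe set 1418203_at had 1.85, 2.40 and 2.35 in recipients given wild-type marrow against 3.65, 3.11, 3.17 and 2.81 in wild-type cells. There was no overlap between them, and replicate 1 of each group was its extreme. The difference was -0.98 ± 0.22 (adjusted p = 0.0421, limma, exact permutation p = 0.0286). This call was lost without any 1 of 6 of the 7 arrays (adjusted p of 0.0752 to 0.205) and without the intensity trend (adjusted p = 0.0808, limma).

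In recipients given knock-out marrow Pmaip1 had 2.34, 2.99, 3.11 and 2.84, which overlapped with both other groups of batch 2. It differed by 0.62 ± 0.22 from recipients given wild-type marrow (adjusted p = 0.144) and by -0.36 ± 0.21 from wild-type cells (adjusted p = 0.352, limma). In knock-out marrow it had 2.11, 1.20 and 2.20 in GPI-negative cells against 2.36, 2.48 and 2.38 in GPI-positive cells. These groups did not overlap, GPI-negative replicate 2 was far the lowest, and the difference was -0.57 ± 0.24 (adjusted p = 0.0874, limma).

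The knock-out difference and the recipient difference share no array, and the gap between them was tested as an interaction in the same fit. It was called for 8 of the 26 probe sets, 4 positive and 4 negative, over a background of 6.72% positive and 8.23% negative, with a median of -0.24 for the members against -0.00 for all probe sets. Bcl2 made up the positive calls: its knock-out difference exceeded its recipient difference by 1.36, 1.28, 1.06 and 0.81 on 4 probe sets, and on 1422938_at by 0.51 ± 0.27 (adjusted p = 0.218, limma). The negative calls were 1416881_at (-1.19 ± 0.26, adjusted p = 0.0038) and 1437527_x_at (-0.76 ± 0.23, adjusted p = 0.03) of Mcl1, 1448560_at of Bid (-0.59 ± 0.18, adjusted p = 0.0248) and Pmaip1 (-1.19 ± 0.33, adjusted p = 0.0164), all from limma. With the knock-out GPI-positive arrays averaged, 1 of the 8 calls was left, 1437122_at of Bcl2. The 2 differences come from different batches with different RNA inputs (500 and 1000 ng, taken here as batch 1 and batch 2), so batch and experiment cannot be told apart.

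For each member the genes with the most similar pattern were found by Pearson r with its brightest probe set over the 17 batch-centred arrays, among 14245 genes. This is a description with no test, since the arrays share their groups. For Bcl2 these were Ms4a4b (0.988), Gimap4 (0.988) and Ccl5 (0.985), all known from T and NK cells. For Mcl1 they were Cyp4f18 (0.894), Bcl3 (0.870) and Notch2 (0.861). Bcl2l1 was most like Vopp1 (0.931), Bcl2l11 most like 2610024D14Rik (0.881) and Bid most like Idh1 (0.927). Pmaip1 was most like Neat1 (0.885), and the closest genes of Bak1 and Bbc3 were Ss18l1 (0.795) and Rnpepl1 (0.753).

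The rest of the pathway was read from lists of other apoptosis genes, with the brightest probe set per gene. Their p-values were those of the same fit, adjusted over all 32426 kept probe sets. Of all 14245 genes, read in the same way, 14.0% were called higher and 14.1% lower in knock-out marrow. The shares were 3.30% and 2.67% between the recipient groups, and 5.95% and 4.89% in recipients given knock-out marrow against wild type. No gene of these lists was called between recipients given wild-type marrow and wild-type cells by limma. Of 16 further Bcl2 family genes 11 were tested, and in knock-out marrow 0 were higher and 2 lower (list median -0.20, all genes -0.01). Bad, a BH3-only protein silenced by growth factor signalling, had 2.91, 2.39 and 2.85 in knock-out GPI-negative cells against 3.49, 3.54 and 3.79 in knock-out GPI-positive cells. These values did not overlap, and Bad differed by -0.89 ± 0.14 (adjusted p = 4.02e-05, limma). Bnip3, a mitochondrial protein induced by low oxygen, differed by -0.54 ± 0.16 (adjusted p = 0.0147, limma). None of the 11 was called in the recipient comparisons.

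Genes that feed death receptor signals into Bid changed in both directions in knock-out marrow, where 5 of the 9 tested were higher and 3 lower (list median 0.34). Fasl, the ligand of the death receptor Fas, had 3.03, 2.92 and 3.31 in knock-out GPI-negative cells against 1.48, 0.38 and 1.01 in knock-out GPI-positive cells. The groups did not overlap, and it rose by 2.13 ± 0.23 (adjusted p = 5.59e-07, limma). Its mean in knock-out GPI-positive cells lay at the 31.6th percentile, under the 40th percentile of the filter, so the size of this difference is uncertain. Gzmb, a granule protease that can cut Bid, rose 3.22-fold and Tnfsf10, the ligand TRAIL, 1.59-fold, while Tnfrsf1a, a receptor of tumour necrosis factor, differed by -0.63 ± 0.16 (adjusted p = 0.0069, limma). Fasl and Gzmb are made by T and NK cells, whose markers are given above. In recipients given knock-out marrow 1 gene of this list was higher than in recipients given wild-type marrow and 0 were lower (list median 0.41). Gzmb had 2.90, 3.50, 1.98 and 2.62 in recipients given knock-out marrow against 1.65, 1.96 and 1.38 in recipients given wild-type marrow. They did not overlap, by a narrow gap, and the difference was 1.09 ± 0.22 (adjusted p = 0.0056, limma). Against wild type Gzmb (1.09) and Fasl (0.73) were higher and 0 were lower.

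Downstream of the mitochondrion, 16 of 18 genes of the caspase cascade were tested, and 3 were higher and 3 lower in knock-out GPI-negative cells (list median 0.06). Casp6, an executioner caspase, and Birc3, an inhibitor of apoptosis, rose by 0.45 and 0.44, and Casp9 and Apaf1, the initiator caspase and its scaffold in the apoptosome, fell by 0.49 and 0.48. In recipients given knock-out marrow, against those given wild-type marrow, 0 of these were higher and 3 lower (list median -0.01). Birc5 (survivin), which acts in cell division as well as in apoptosis, had 5.93, 5.67, 5.62 and 5.67 in recipients given knock-out marrow, 6.34, 6.65 and 6.79 in recipients given wild-type marrow and 6.78, 6.57, 6.85 and 6.92 in wild-type cells. Each array of the first group lay below each array of the others, and the differences were -0.87 ± 0.16 (adjusted p = 0.0019) and -1.06 ± 0.15 (adjusted p = 8.34e-05, limma). Of 13 cell cycle genes, 12 were also lower in each of these 2 comparisons, with list means of 5.16 to 5.46 in recipients given knock-out marrow, 5.97 to 6.16 in recipients given wild-type marrow and 5.86 to 6.06 in wild-type cells. Their part in the Birc5 result was not tested. Htra2, a mitochondrial protease, and Vdac1, a channel of the outer membrane, fell by 0.47 and 0.34 between the recipient groups.

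Of p53 and its targets, 13 of 15 were tested, and p53 itself (Trp53) was not among them. In knock-out marrow 2 were higher and 3 lower (list median -0.08). Zmat3 and Sesn1, which respond to p53 and in the case of Sesn1 also to FoxO factors, rose by 1.12 and 1.07, with Zmat3 at the 35.3th percentile in knock-out GPI-positive cells. Perp, a membrane protein induced by p53, fell by 0.82, to the 29.4th percentile, and Mdm2, the ligase that degrades p53, fell by 0.60. None of the 13 was called between the recipient groups, and against wild type Gtse1 fell by 0.44 (adjusted p = 0.0492, limma) while 0 were higher. Among 17 of 18 transcription factors, kinases and ligases reported to act on the family, 5 were higher and 2 lower in knock-out marrow (list median 0.08). Foxo1, a factor that can drive Bcl2l11 transcription, had 4.76, 5.04 and 4.85 in knock-out GPI-negative cells against 3.33, 3.40 and 3.21 in knock-out GPI-positive cells. The groups did not overlap, and the difference was 1.57 ± 0.13 (adjusted p = 1.03e-08, limma).

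Pim2, a survival kinase of lymphocytes, rose by 1.5 in knock-out GPI-negative cells and Huwe1, a ligase that degrades Mcl1 protein, by 0.83, while Gsk3b, a kinase that marks Mcl1 for degradation, fell by 0.60. None of these 17 genes was called between the recipient groups, where Foxo1 had 4.51, 4.26, 4.55 and 4.47 in recipients given knock-out marrow against 4.40, 4.48 and 4.40 in recipients given wild-type marrow, with overlap. Against wild type 0 were higher and 2 lower: Foxo3, a FoxO factor active in red cell maturation, fell by 0.72 and Gsk3b by 0.38. The plot of these lists places Fasl, Gzmb, Foxo1 and Pim2 furthest right in knock-out marrow and Gzmb alone beyond 0.8 between the recipient groups.

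**Figure D4:**
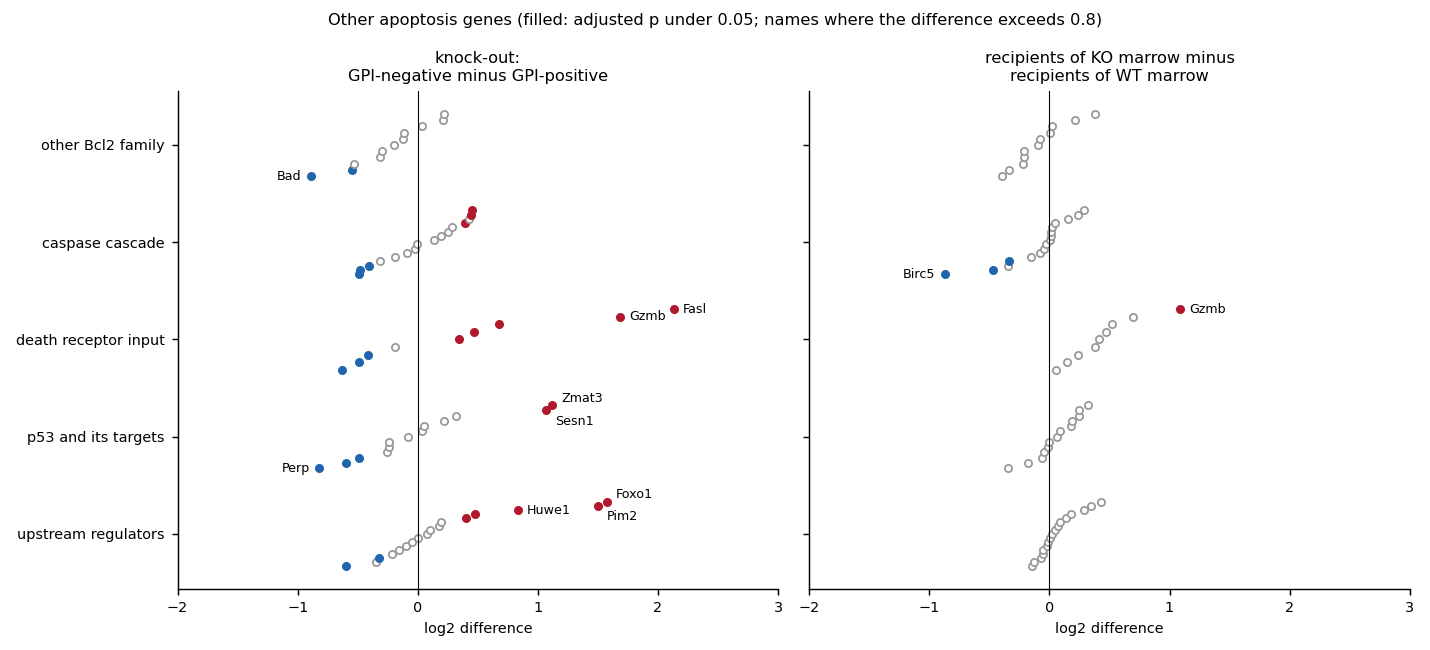
Log2 differences (x axis) of the tested genes of 5 apoptosis lists (rows) in knock-out marrow (left) and between the recipient groups (right), with filled points for an adjusted p under 0.05 and names where a called difference exceeds 0.8. The row of p53 and its targets holds no point for p53 itself, which was not tested. Fasl (2.13), Gzmb (1.69), Foxo1 (1.57) and Pim2 (1.5) lie furthest to the right in knock-out marrow, while Gzmb (1.09) and Birc5 (-0.87) are the named points between the recipient groups.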

How the data were processed

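The values were the deposited log10 intensities of 45101 probe sets on 17 single-colour arrays, as the authors processed them. The scale was read from the values, which span the range of a log10 scale and follow the spiked control concentrations. The submitters' processing notes list GCOS and give it no role, and how background was corrected and probes were summarised was found in none of the sources used here. Sorted from low to high, the values of the arrays of a batch were identical, so these arrays were on a common distribution per batch (medians 0.515 in batch 1 and 0.387 in batch 2) and levels were compared only within a batch.

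Log2 signal was obtained by dividing by log10(2), arrays were centred on a common median, and 64 control probe sets were left out. The filter asked for the 40th percentile on at least 3 arrays and left 32426 probe sets. Of the probe sets other than controls, 34945 had 1 gene symbol in the platform annotation, 932 had several and 9160 were unnamed, and 34741 of the single symbols matched RefSeq (GRCm38.p6).

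One limma fit (version 3.58.1, R 4.3.3) over 5 group means, with an intensity trend and 12 residual degrees of freedom, gave all differences. The threshold was an adjusted p of 0.05 over all kept probe sets, also for the genes of the lists, each read from its brightest probe set. The script was tested on simulated data. Each member probe set was described, and from each list up to 4 called genes with the largest difference in a comparison, and 3 genes by likeness, of which 1 is printed for all members but Bcl2 and Mcl1. Piga, single marker genes and some genes of the interaction were named outside that rule, after their values were seen. The members and lists were chosen with earlier results of these data known. Filters, normalization, variance moderation, the arrays in the fit, a replicate block, array weights and 1 value per gene were varied. The number of arrays limits the precision. Figures were drawn with matplotlib 3.10.9.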

Additional observations from a re-analysis of the deposited data

Results flagged for a closer look

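The knock-out difference (GPI-negative minus GPI-positive cells) and the recipient difference (recipients given knock-out marrow minus recipients given wild-type marrow) were unequal for 23 of the values described, by an interaction term in limma with an adjusted p under 0.05. Over all probe sets 6.72% were called positive and 8.23% negative for this term, and 8 of the 26 member probe sets were called. Positive and negative calls were 0 and 1 of 11 further Bcl2 family genes and 1 and 1 of 16 caspase cascade genes. They were 1 and 3 of 9 death receptor genes, 2 and 2 of 13 p53 targets, and 3 and 1 of 17 regulators. The share over all genes was not computed. Values below are the first difference minus the second, in log2 units. Bcl2 gave 1.36 on 1437122_at, 1.28 on 1440770_at, 1.06 on 1443837_x_at and 0.81 on 1457687_at. Mcl1 gave -1.19 on 1416881_at and -0.76 on 1437527_x_at, Bid gave -0.59 on 1448560_at and Pmaip1 gave -1.19.

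Among the other apoptosis genes, the positive values were 1.55 for Foxo1, 1.44 for Fasl, 1.21 for Pim2, 0.91 for Huwe1, 0.82 for Sesn1, 0.80 for Zmat3 and 0.60 for Aifm1. The negative values were -1.01 for Tnfrsf1a, -0.90 for Cflar, -0.81 for Bad, -0.74 for Plk2, -0.60 for Gsk3b, -0.59 for Mdm2, -0.57 for Fadd and -0.49 for Apaf1. Fasl and Zmat3 in knock-out GPI-positive cells and Plk2 in knock-out GPI-negative cells lay under the 40th percentile, so the sizes of these 3 values are uncertain. The 2 experiments lie in different batches, so experiment and batch cannot be told apart. With the knock-out GPI-positive arrays averaged, 1 of the 8 member calls was left.

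No array of a group of 4 stood far from the rest on a member probe set: of 54 such groups of values examined, 0 held an array whose gap to its nearest neighbour passed the 95% limit of Dixon's test.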

How the results depend on the processing

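With no alternative did a called difference of a member probe set change direction. The counts of called member probe sets were 10 in knock-out marrow, 9 between the recipient groups, 7 in recipients given knock-out marrow against wild type, 1 in recipients given wild-type marrow against wild type and 8 for the interaction. A filter at the 60th percentile, quantile normalization over all arrays and cyclic loess kept each count within 1.5 times. The single call of recipients given wild-type marrow against wild type became 0 with no filter, 0 without the intensity trend, 0 with the replicate block, 2 in a fit on only the groups compared and 2 with array weights. Without the intensity trend the recipient count was 5 and the count of recipients given knock-out marrow against wild type 4, and with array weights the second was 11. Averaging the knock-out GPI-positive arrays gave 6 in knock-out marrow and 1 for the interaction. With the brightest probe set per gene, which tests fewer features, the counts were 3, 2, 2 and 4 (knock-out, recipients, against wild type, interaction). Averaging the probe sets of each gene gave 3, 1, 2 and 4, and 0 for recipients given wild-type marrow against wild type. Leaving out 1 array gave 9 to 12 in knock-out marrow, 3 to 11 between the recipient groups (3 without replicate 3 of the recipients given wild-type marrow, 5 without its replicate 2 or without replicate 2 or 3 of the recipients given knock-out marrow) and 4 to 7 in recipients given knock-out marrow against wild type (4 without replicate 3 of the recipients or replicate 1 or 3 of wild type). It gave 0 to 1 in recipients given wild-type marrow against wild type (1 only without wild-type replicate 4) and 5 to 11 for the interaction (5 without knock-out GPI-positive replicate 1 or replicate 2 of the recipients given wild-type marrow). The cause was not tested. Deviations of arrays of the same replicate number had a correlation of -0.13 to 0.09. The labels do not say what a replicate number shares, and these correlations cannot show whether such arrays share an animal. With the replicate block the other counts were 10, 8, 5 and 6.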

Other observations

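Markers of macrophages moved in the same comparisons as the Bcl2 family, in the other direction from Bcl2. C1qa, C1qb and C1qc, the chains of complement C1q made by tissue macrophages, and Vcam1, an adhesion molecule of marrow macrophages, were lower in knock-out GPI-negative than in knock-out GPI-positive cells and lower in recipients given knock-out marrow than in recipients given wild-type marrow (limma). C1qb differed by -1.10 and Vcam1 by -1.81 in knock-out marrow, and by -1.14 and -1.94 between the recipient groups. C1qa and C1qc lay at the 7.18th and 22.6th percentile in knock-out GPI-negative cells and at the 22.2th and 11.6th in recipients given knock-out marrow. These are under the 40th percentile of the filter, so no size is given for their differences. Of the 10 genes of the monocyte and macrophage list, 7 were lower and 0 higher in knock-out marrow, and 4 were lower and 3 higher between the recipient groups. The 3 higher genes were Csf1r, Cd68 and Ccr2, which monocytes also express. Their list mean was 2.61 to 2.83 in knock-out GPI-negative cells against 3.51 to 3.55 in knock-out GPI-positive cells, and 2.89 to 3.40 in recipients given knock-out marrow against 3.42 to 3.59 in recipients given wild-type marrow.

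Eosinophil markers were lower in knock-out GPI-negative cells for 4 of 4 tested genes, with Prg2, the major basic protein of eosinophil granules, at -3.04 ± 0.46. Ccr3 and Il5ra lay at the 6.49th and 10.4th percentile in knock-out GPI-negative cells, and Il5ra at the 38.3th in knock-out GPI-positive cells. These are under the 40th percentile of the filter, so the sizes of their differences are uncertain. In the recipients, 1 of the 4 was lower with the knock-out graft, Epx, the eosinophil peroxidase, at -1.27 ± 0.32 (adjusted p = 0.0243, limma). The part of these markers in the Bcl2 family results was not tested.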
